A study of Rattus norvegicus with 15 samples.

Results

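The markers of neuron maturation were followed in the olfactory epithelium of the rat by every array probe annotated to Omp, Gap43, Ncam1, Dcx, Tubb3, Stmn1, Stmn2, Crmp1 or Dpysl3. The rule gave 10 probes for these 9 genes among the 41012 probes of the array, with 1 probe for each of 8 genes and 2 probes for Stmn1. The tissue came from Brown Norway rats aged 6 weeks, 4 males and 4 females, with no treatment and no introduced allele given in the labels. Nostril A was hybridised alone for male 1, and nostrils A and B each on an array of its own for the other 7 rats, so that 7 male and 8 female arrays were compared. The labels give neither the side of a nostril nor the breeder of a rat.

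Olfactory sensory neurons are replaced throughout life from basal cells at the bottom of the epithelium. A newborn neuron first grows an axon to the olfactory bulb and during that time makes proteins of the growth cone and of the growing microtubule skeleton, among them GAP-43, doublecortin and the stathmins. Once the axon has found its target and the cilia bear odorant receptors, the neuron turns these genes down and makes the olfactory marker protein, encoded by Omp, as the classical sign of maturity. The comparison between Omp and the other markers therefore addressed whether the balance of mature and growing neurons differed between nostrils, sexes and animals.

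Levels are given as log2 of the signal of a probe divided by the median signal of its array, so that a level of 0 is the median probe and an increase by 1 is a doubling. Brightness depends on the probe as well as on the transcript, and a level was compared only with the level of the same probe on other arrays. All 10 probes were well above background on all 15 arrays and 0 were saturated. Median signals ranged from 57.4 to 83.4 units, and between 26233 and 28741 probes were well above background on an array. The 15 arrays lay on 4 slides, with male 1A, 2A, 2B and female 3A on slide 1, female 3B, 4A and 4B on slide 2, the arrays of males 5 and 6 on slide 3 and those of females 7 and 8 on slide 4. Since the tissue was taken whole, fewer neurons of a stage and less RNA per neuron cannot be told apart in these values.

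The mature marker Omp, read by probe A_44_P448740 at chr1:155467292-155467351 on the minus strand (rat build rn3, as the array design gives it; the exon is not given), had the sequence shown here because each comparison below starts from it.

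Omp (A_44_P448740): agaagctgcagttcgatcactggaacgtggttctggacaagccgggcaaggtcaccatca

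The level of Omp ran in the male arrays from 7.40 to 7.68 with a median of 7.54, and in the female arrays from 7.34 to 7.69 with a median of 7.52. The male arrays lay within the interval of the female arrays, and the whole range of 0.35 on the log2 scale amounted to a ratio of 1.27 between the brightest array (female 3A) and the dimmest (female 8A). The standard deviation within a rat, from its 2 nostrils, was 0.088 log2, against 0.098 between the means of the 8 rats.

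Gap43 codes for a membrane protein of the growth cone. Its probe A_42_P833045 (chr11:60141480-60141539) was printed 10 times on each array, and the spots of an array differed by a median standard deviation of 0.046 log2. Its level ran from 8.57 to 8.88 in males (median 8.77) and from 8.61 to 8.92 in females (median 8.78). The groups overlapped over nearly their whole length. Ncam1, the neural cell adhesion molecule, was also printed 10 times (A_44_P288231, chr8:52844977-52845972) and ran from 4.27 to 4.73 in males (median 4.55) and from 4.36 to 4.90 in females (median 4.61). The spots of an array differed by a median standard deviation of 0.056 log2, and the 15 arrays by a standard deviation of 0.17 log2.

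Among the proteins of the microtubule skeleton, Dcx, coding for doublecortin, which bundles microtubules in migrating and growing neurons (A_44_P129412, chrX:34725493-34725548), ran from 7.62 to 7.97 over the 15 arrays with a median of 7.80. Tubb3, the neuronal class of beta-tubulin (A_42_P509314, chr19:53756325-53756384), ran from 7.96 to 8.44 with a median of 8.15, and Stmn2, a stathmin of growth cones that binds tubulin (A_44_P496061, chr2:95230233-95230292), from 8.43 to 8.85 with a median of 8.62. In the family of collapsin response mediator proteins, which carry guidance signals to the cytoskeleton of the axon, Crmp1 (A_44_P336226, chr14:79086836-79086895) ran from 3.72 to 4.21 with a median of 3.93. Dpysl3 (A_44_P264659, chr18:36667008-36669781) ran from 3.67 to 4.11 with a median of 3.99. None of these 5 genes separated the sexes, and their brightest array was never more than 1.41 times as bright as their dimmest.

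Stmn1, coding for stathmin, which frees tubulin from microtubules in dividing and immature cells, was read by 2 probes that did not follow each other. Probe A_43_P11845 (chr5:153241770-153241828) had the narrowest range of the 10 probes, from 9.12 to 9.43, and probe A_44_P401165 (chr5:153241158-153241217) the widest, from 8.28 to 9.04. Their Pearson r was 0.060 over the 15 arrays and 0.058 over the means of the 8 rats. In the array annotation A_44_P401165 also carries the accessions of a predicted locus similar to stathmin 1, RGD1565395, whose own probe A_44_P401161 lies at chr10:84029305-84029364, while A_43_P11845 does not carry them. The sequences are shown because signal of both loci cannot be told apart where a probe is assigned to both.

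Stmn1 and RGD1565395 (A_44_P401165): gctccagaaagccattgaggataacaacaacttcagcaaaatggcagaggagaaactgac
RGD1565395 (A_44_P401161): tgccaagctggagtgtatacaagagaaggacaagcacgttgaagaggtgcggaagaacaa

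The probe of RGD1565395 ran from 8.88 to 9.36 over the arrays, with a Pearson r of 0.55 to A_44_P401165 and of 0.82 to A_43_P11845. A second probe described as the gene of the olfactory marker protein (A_44_P412147, chr1:155465532-155465591, named in the annotation by accession only and therefore outside the rule) ran from 11.98 to 12.38 and had a Pearson r of 0.87 to the Omp probe over the 15 arrays, against 0.44 to Gap43. The probes of RGD1565395 and of the second Omp sequence were singled out after their values were seen.

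**Figure D1:**
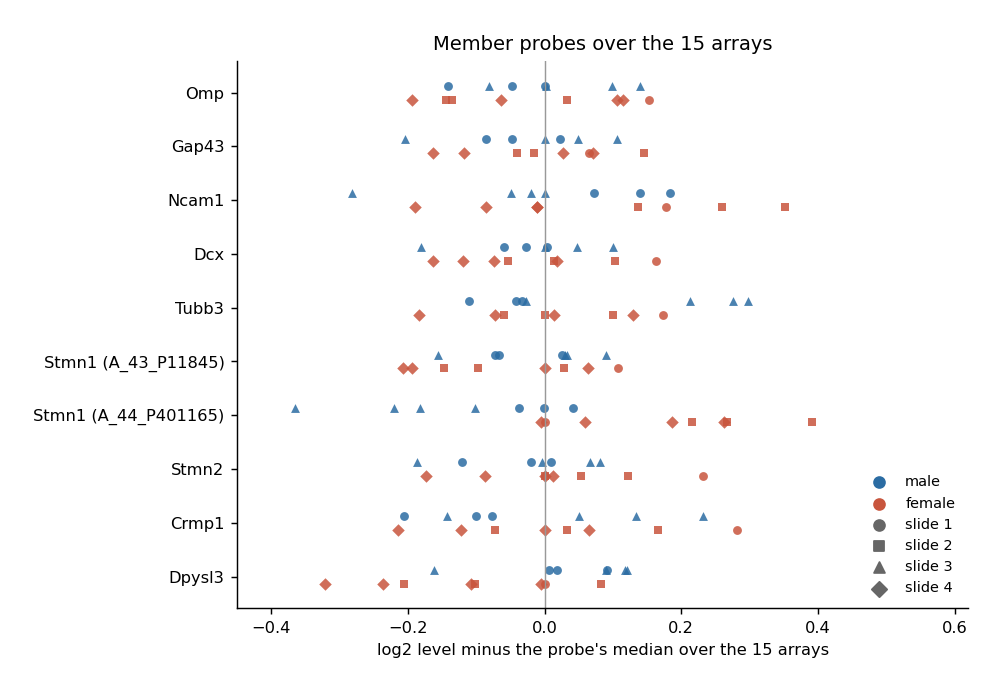
Levels of the 10 member probes on the 15 arrays. The x axis gives the log2 level minus the median of that probe over the arrays, each point is 1 array, colour stands for sex and shape for slide. Ranges span 0.31 to 0.76 log2, Ncam1 splits between slides 1 and 2 and slides 3 and 4, and A_44_P401165 of Stmn1 is the probe on which males lie mostly to the left of females.

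Over the 10 probes the range between arrays was 0.31 to 0.76 log2, or a ratio of 1.24 to 1.69. For comparison, the median range was 0.63 log2 over the 27574 tested probes with a value on every array, and 0.43 over the 3370 probes with a mean level above 6 that were detected on all arrays. The dimmest array was female 8A for 5 probes (Omp, Tubb3, Stmn1 A_43_P11845, Crmp1 and Dpysl3) and male 6A for the other 5. By rat means, female 3 was highest for 6 probes, and female 8 was lowest for Gap43, Dcx, Tubb3, Stmn1 (A_43_P11845), Stmn2 and Dpysl3.

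Nostrils A and B of the same rat were compared first. The difference A minus B of Omp was 0.14 in male 2, 0.12 in female 3, -0.0094 in female 4, 0.096 in male 5, -0.22 in male 6, -0.0090 in female 7 and -0.13 in female 8. Omp was thus higher in nostril A in 3 of 7 rats, and the mean difference was -0.0018 ± 0.047 (SE, n = 7; limma with the rat as block, adjusted p = 0.995). Its 95% confidence interval ran from -0.11 to 0.10 log2. For Gap43 the differences were 0.071, -0.080, -0.026, 0.057, -0.20, 0.043 and -0.046 in the same order of rats, with A higher in 3 of 7. The mean was -0.026 ± 0.038 log2 (SE, n = 7; limma, adjusted p = 0.894).

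Over the 10 probes the mean differences lay between -0.060 (Ncam1) and 0.020 (Stmn1, A_43_P11845), with a median of -0.011 beside -0.0099 over all tested probes. 0 members passed a false discovery rate of 1% in limma, where 0 of 27574 probes (0%) passed, and 0 members had an unadjusted p under 0.05, against 5.89% of the probes tested. The 95% intervals of the 10 members reached no further than 1.13-fold in favour of nostril B and 1.08-fold in favour of nostril A, so that larger mean differences lay outside the interval of each probe. The difference between nostrils was also compared between the sexes, and again 0 members passed 1% (0% of 27574 probes) or had an unadjusted p under 0.05 (2.36% of the probes).

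Within single rats, 6 to 10 of the 10 member probes were higher on the same side. In male 6, nostril B exceeded nostril A for 10 of 10 probes with a median difference of -0.21 log2, from -0.15 for A_44_P401165 of Stmn1 to -0.28 for Ncam1. Nostril B was also the brighter one in male 6 for most of the other probes, since 10.1% of the probes with a mean level above 6 and 32.5% of all were higher in A, with medians of -0.13 and -0.084. In male 2 and in male 5, nostril A was higher for 9 of 10 members (medians 0.067 and 0.059), beside 84.1% and 81.5% of the probes above level 6. In female 4 and female 7 the members leaned to nostril A, with 8 and 7 of 10 higher, while 41.4% and 35.8% of the probes above level 6 were higher there. In female 8, nostril B was higher for 9 of 10 members (median -0.085), beside 25.1% of the probes above level 6 higher in A. In female 3, whose nostrils lay on different slides, 6 of 10 members were higher in A and 4 in B, beside 59.6%.

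**Figure D2:**
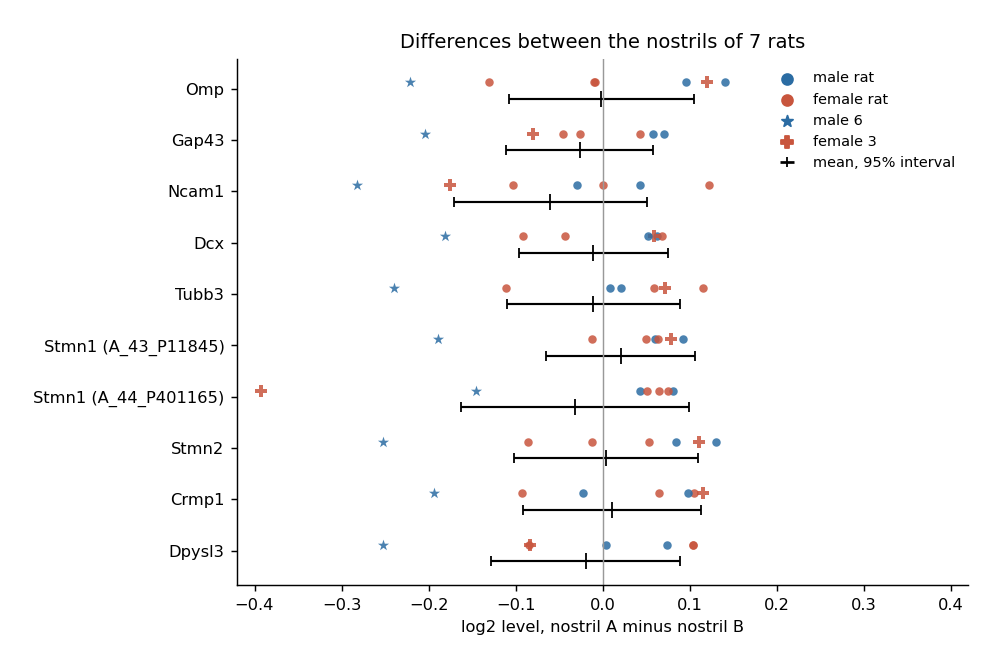
Differences between nostrils for the 10 member probes. The x axis gives log2 level in nostril A minus nostril B, coloured points are the 7 rats measured on both sides (star, male 6; plus, female 3), and the black bar is the limma mean with its 95% interval. Every interval includes 0, and the star lies left of 0 for all 10 probes.

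The sexes were compared on the means of 4 male and 4 female rats. Omp averaged 7.53 ± 0.058 (SD, n = 4) in males and 7.52 ± 0.14 (SD, n = 4) in females, and Gap43 averaged 8.74 ± 0.082 and 8.77 ± 0.11. The differences, female minus male, of -0.0066 ± 0.073 for Omp and 0.027 ± 0.067 for Gap43 (SE; limma, adjusted p = 0.974 and 0.871) were within the spread between rats. 0 of 10 members passed 1% in limma, beside 12 of 27625 probes (0.0434%), and 1 had an unadjusted p under 0.05, beside 17.1% of the probes.

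That member was the Stmn1 probe A_44_P401165. Its rat means were 8.61, 8.67, 8.50 and 8.35 in males 1, 2, 5 and 6, and 8.84, 8.89, 8.87 and 8.67 in females 3, 4, 7 and 8. All 4 females lay above all 4 males, with female 8 and male 2 level to the digits given, as for 1 of the 10 members and for 11.3% of all tested probes in either direction. The difference of 0.28 ± 0.079 log2 (SE, n = 4 and 4) had an adjusted p of 0.133 in limma. Sex and slide ran nearly together: slide 3 held males and slides 2 and 4 held females. On slide 1, the only one with both sexes, female 3A had a level of 8.64 and the 3 male arrays ran from 8.61 to 8.69, while the other nostril of the same rat on slide 2, female 3B, had 9.04. With the slide as block the difference between sexes became -0.0011 ± 0.11 log2 (SE; limma, adjusted p = 0.997), which rests on female 3A as the single female array beside males. The other probe of the gene, A_43_P11845, differed by -0.032 ± 0.069 log2. Dpysl3 averaged 4.03 ± 0.067 in males and 3.88 ± 0.14 in females (SD, n = 4 each), a difference of -0.15 ± 0.078 log2 (SE; limma, adjusted p = 0.367) that did not pass.

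Differences between animals were tested among rats of one sex, with the nostrils as repeats. This fit had no term for the slide, although some rats of one sex lay on different slides. 0 members passed 1% in limma, beside 537 of 27574 probes (1.95%), and 6 of 10 had an unadjusted p under 0.05, beside 35.2% of the probes. F ran from 2.63 for A_44_P401165 of Stmn1 to 7.09 for Ncam1, and the lowest adjusted p of a member was 0.0458 (limma), that of Ncam1, with Crmp1 next at an F of 6.72.

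The levels of Ncam1 and of the Stmn1 probe A_44_P401165 were also read by slide. For Ncam1 the 7 arrays on slides 1 and 2 ran from 4.62 to 4.90 (mean 4.74) and the 8 arrays on slides 3 and 4 from 4.27 to 4.55 (mean 4.47), without overlap. Among all 27574 probes tested, 2.79% did not overlap between these slides in either direction, and of the 10 members it was Ncam1 alone. Both slide pairs held both sexes, but rats 1 to 4 lay on slides 1 and 2 and rats 5 to 8 on slides 3 and 4, so that slide and animal cannot be told apart. The study took its rats from more than 1 breeder, and as the labels tie no rat to a breeder, a difference between breeders cannot be told apart from the slides either. Per the methods, the left sample of a male of one breeder was left out for low RNA integrity, and male 1 was the only rat with a single array, which gives no breeder for the other 7 rats. In a fit with a slide term, male 5 was compared with male 6 and female 7 with female 8, each pair on 1 slide. Female 3, read on slide 1, was compared with female 4 on slide 2, so that this pair still crossed slides. The F of Ncam1 was then 1.13 (limma, adjusted p = 0.565). The Stmn1 probe A_44_P401165 ran from 8.61 to 8.69 on slide 1, from 8.86 to 9.04 on slide 2, from 8.28 to 8.54 on slide 3 and from 8.64 to 8.91 on slide 4. Slides 1 and 2 thus overlapped slides 3 and 4 for this probe. For Crmp1 the means of the rats ran from 3.73 in male 1 to 4.16 in female 3, and F was 7.58 in the same fit with a slide term (limma, adjusted p = 0.130).

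**Figure D3:**
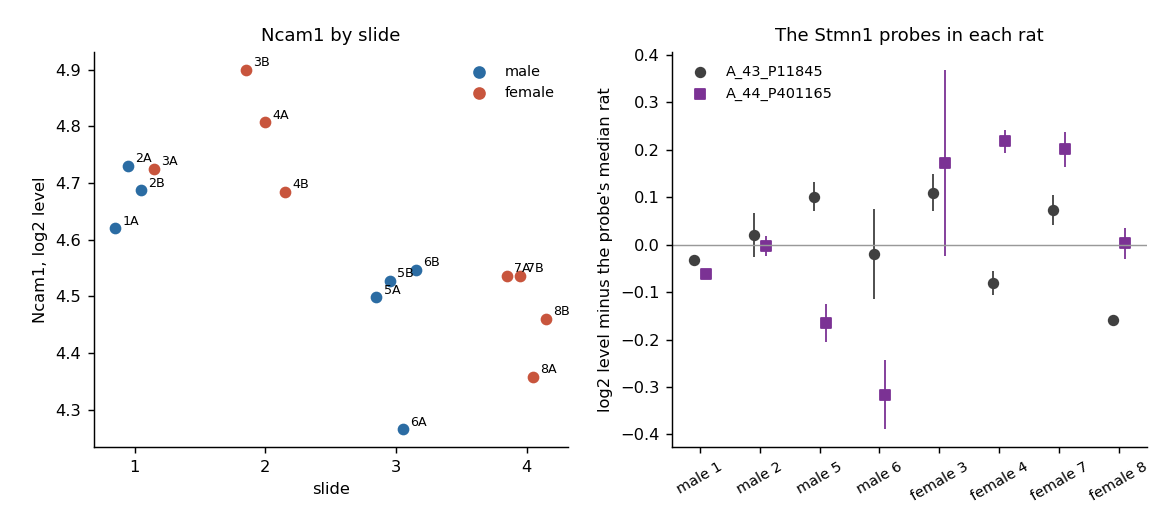
Left, log2 level of Ncam1 (y axis) on each array by slide (x axis), labelled by rat and nostril. Right, both Stmn1 probes in each rat as log2 level minus the median rat of that probe, points being the mean of the nostrils and lines joining them. Ncam1 lies above 4.6 on slides 1 and 2 and below 4.6 on slides 3 and 4, and the probes of Stmn1 take different courses from rat to rat.

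Omp and the other members were then set against each other over the 8 rats. Omp rat means ran from 7.40 in female 4 to 7.65 in female 7, and those of Gap43 from 8.63 in female 8 to 8.88 in female 3. Rats with more Omp signal did not have less Gap43 signal: Pearson's r was 0.68 (exact permutation test, two-sided, n = 8, p = 0.0738; Spearman's rho 0.64, exact p = 0.0963). Over the differences between nostrils, which leave out what differs between animals, r was 0.72 (exact permutation test, two-sided, n = 7, p = 0.0635; Spearman's rho 0.64, exact p = 0.139). With Benjamini-Hochberg adjustment over these 2 relations the exact p-values were 0.0738 for either r and 0.139 for either rho, and neither relation passed 0.05. With the slide as block both were under it, with an r of 0.81 over rats and 0.88 between nostrils (exact permutation p = 0.0136 and 0.00774). Here the mean of each slide was subtracted, which over rats ties the rats of a slide to each other. Between nostrils it moved only the value of female 3, since both nostrils of every other rat shared a slide. The permutations did not take the subtraction into account, so that these p-values may be too small. With quantile normalisation r was 0.23 over rats and -0.039 between nostrils, and with scaling to the 75th percentile 0.59 and 0.52. Without the 2 rats farthest from the median of Omp, r was 0.64 over the remaining 6 rats. Without the 2 farthest differences, those of males 2 and 6, it was 0.10 over 5. Leaving out the values farthest in Omp narrows its range, which by itself lowers r. Between nostrils r was 0.34 without male 6 alone, 0.65 without male 2 alone and 0.92 without female 3, whose nostrils lay on different slides (exact permutation test, n = 6, p = 0.501, 0.151 and 0.00139).

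**Figure D4:**
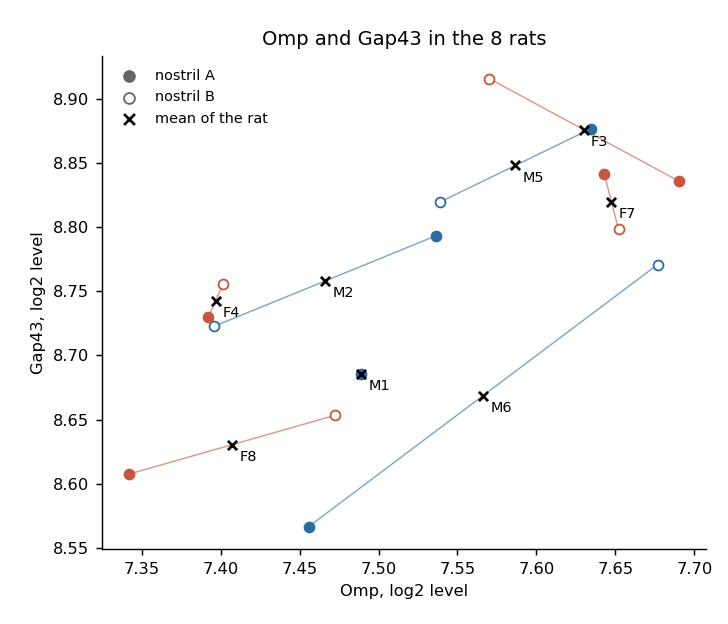
Omp (x axis) against Gap43 (y axis), both as log2 level. Filled and open circles are nostrils A and B, blue stands for males (M) and red for females (F), lines join the nostrils of a rat and crosses mark the mean, labelled with the number of the rat. The crosses have a Pearson r of 0.68 over 8 rats.

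The quotient of Omp over Gap43 does not depend on the factor by which an array is scaled. It changed by at most 0.26 log2 over the 15 arrays, a ratio of 1.20 between male 6B, where Omp stood highest relative to Gap43, and female 4B, where it stood lowest. Both nostrils of female 4 were near the lower end and both nostrils of male 6 at the upper end. The quotient differed by 0.025 ± 0.094 log2 (SD, n = 7) between nostrils A and B (exact permutation test by sign change, two-sided, p = 0.578, the smallest attainable being 0.0156). It differed by -0.034 log2 between females and males (exact permutation test over the 70 splits of 8 rats, two-sided, p = 0.571, the smallest attainable being 0.0286). The quotient was chosen as a measure after levels had been seen. Against the other members, the quotient of Omp was steadiest for A_43_P11845 of Stmn1, with a range of 0.20 log2, and widest for A_44_P401165 of the same gene, with 0.77.

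Over the means of the 8 rats, 7 of the 9 other member probes had a positive Pearson r with Omp, beside 63.1% of the tested probes outside the members. The r was 0.86 for Stmn1 (A_43_P11845), 0.74 for Tubb3, 0.68 for Crmp1, 0.60 for Dpysl3, 0.57 for Stmn2 and 0.56 for Dcx. Ncam1 (-0.022) and the other Stmn1 probe (-0.049) stood near 0. In limma with the level of Omp as covariate 0 members passed 1%, as for 0% of 27625 probes, and 3 of 9 had an unadjusted p under 0.05 (Stmn1 A_43_P11845, Tubb3 and Crmp1), beside 7.58% of the probes. With the slide as block, a fit that takes the nostrils of a rat as independent, 4 members passed 1% and 1539 of 27574 probes did. Over the differences between nostrils r was 0.97 for Stmn2, 0.89 for Stmn1 (A_43_P11845), 0.84 for Dcx, 0.77 for Tubb3, 0.77 for Crmp1, 0.62 for Dpysl3, 0.50 for Ncam1 and -0.077 for the Stmn1 probe A_44_P401165. Here too 0 members passed 1% (0% of 27574 probes), and 4 of 9 had an unadjusted p under 0.05, beside 14.8% of the probes.

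With Gap43 as reference all 9 other probes had a positive r over the rats, beside 63.9% of the tested probes outside the members and 84.3% of those above level 6. The r ran from 0.40 for A_44_P401165 to 0.90 for Dcx and Stmn1 (A_43_P11845), with 0.89 for Crmp1, 0.84 for Stmn2, 0.74 for Tubb3, 0.65 for Dpysl3 and 0.53 for Ncam1. 0 members passed 1% in limma, as for 0% of the probes, and 5 of 9 had an unadjusted p under 0.05, beside 3.96% of the probes. With the slide as block 5 members and 509 of 27574 probes passed 1%. Between nostrils the r with Gap43 was again positive for all 9, from 0.59 for Crmp1 to 0.87 for Dpysl3, beside 70.6% of the tested probes outside the members and 91.3% of those above level 6. Here 0 members passed 1% (0% of the probes) and 2 of 9 had an unadjusted p under 0.05, beside 9.79%. The median r of the 9 was 0.60 with Omp and 0.74 with Gap43 over rats.

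The likeness between probes on these arrays grew with their brightness. Over the rats, the median r with Omp was 0.15 for all 27615 tested probes that are not members, but 0.46 for the 3369 of them with a mean level above 6, where 85.3% were positive. The 6 other member probes above that level had a median of 0.62. Over the differences between nostrils the corresponding medians were 0.26, 0.69 and 0.81. With Gap43 as reference they were 0.14, 0.35 and 0.79 over rats and 0.30, 0.55 and 0.72 between nostrils. When the arrays were quantile normalised, which gives every array the same distribution of signals, the median r of the members with Omp fell from 0.60 to 0.23 over rats and that of the probes above level 6 from 0.46 to 0.032. How far brightness carries the likeness of the members was not tested.

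**Figure D5:**
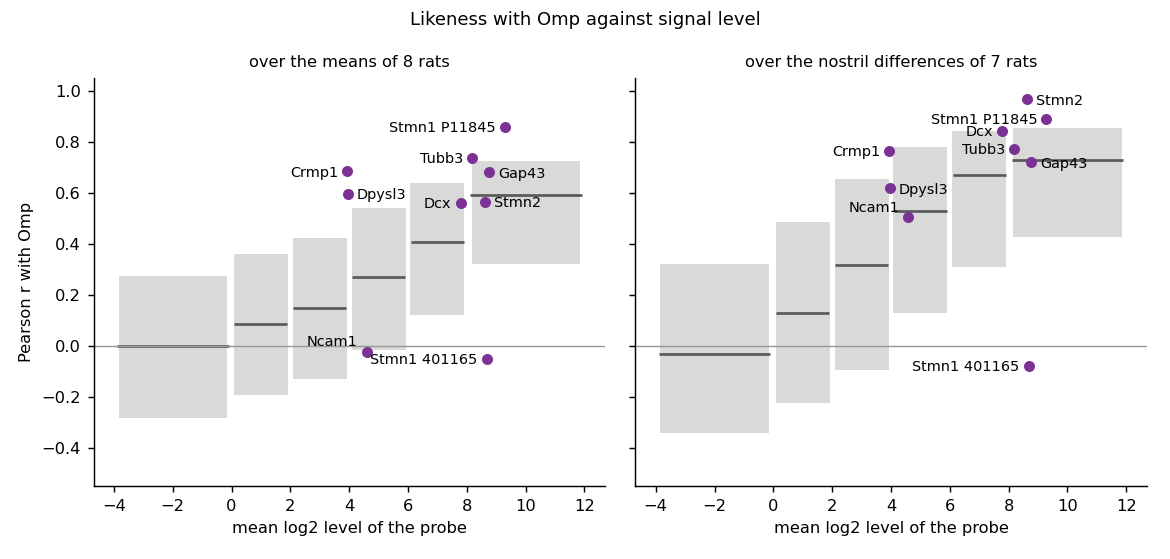
Pearson r with Omp (y axis) against mean log2 level of the probe (x axis), left over the means of 8 rats and right over the nostril differences of 7 rats. Grey boxes give the quartiles and lines the median of all other tested probes by level (the last box holds all above 8), points the 9 other member probes, with both Stmn1 probes marked by the end of their name. The median rises from near 0 in the dimmest box to 0.59 in the brightest on the left, and 6 of the 9 members lie above the median of their box on either side.

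Among the 11456 named probes detected on all 15 arrays outside the members, the genes whose levels were most like Omp by Pearson r over the arrays included Rbmxrt (0.93), Bpnt1 (0.93), Ndnl2 (0.93), Psmd10 (0.91), Coro2a (0.91), Rpl29 (0.91), Psmc1 (0.91) and Tuba6 (0.91). For Gap43 they included Tubb2b (0.94), Cycs (0.92), Uble1a (0.92), Sult4a1 (0.91), Rps25 (0.90), Dpysl2 (0.90), Tuba6 (0.90), R3hcc1 (0.90) and Ndufs5b (0.89). Tubb2b, a beta-tubulin of growing neurons, and Dpysl2, which codes for a further collapsin response mediator protein, belong to the list of immature neuron genes below. No gene of the list of mature neurons was among the 10 nearest to Omp. These r values are a description over 15 arrays of 8 rats that share slides and scaling.

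Of the other genes of mature olfactory neurons, 17 of the 22 listed were tested, by 27 probes. 0 of these probes passed 1% in limma between nostrils, between sexes, or between rats of one sex, where 0%, 0.0434% and 1.95% of all tested probes passed. Their r with Omp over rats had a median of 0.26, with 22 of 27 above 0, beside 63.1% of the tested probes outside the members and 85.3% of those above level 6. With Gap43 the median was 0.46, with 24 of 27 above 0, beside 63.9% and 84.3%. The r with Omp was highest for the chaperone of odorant receptors Rtp1 (0.95), followed by the adenylyl cyclase of the odorant cascade Adcy3 (0.84) and 1 of 5 probes of the G protein subunit Gnb1 (0.82). For the channel subunit Cnga2 it was 0.22, and for the calcium-binding S100a5 it was 0.064. Between nostrils the median r of these probes with Omp was 0.77, beside 0.26 over all probes, 0.69 over the probes above level 6 and 0.72 for the 11 probes of sustentacular cells, the supporting cells of the epithelium. It was 0.90 for the channel subunit Cnga4, 0.89 for Adcy3 and 0.91 for Stoml3, a protein of the cilia of olfactory neurons, but 0.032 for Cnga2 and -0.86 for probe A_44_P398060 of the adhesion molecule Nrcam.

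Of the genes of immature olfactory neurons outside the members, 26 of the 30 listed were tested, by 42 probes. Their median r was 0.26 with Omp and 0.32 with Gap43 over rats. With Omp 34 of 42 were above 0, beside 63.1% of the tested probes outside the members and 85.3% of those above level 6. 0 of these probes passed 1% between nostrils or sexes (0% and 0.0434% of all probes), and 1 of 42 did between rats of one sex, where 1.95% of all probes passed. It was the probe of Basp1, a growth cone protein related in function to GAP-43. Its rat means spanned 0.54 log2 (limma without a slide term, F = 28.8, adjusted p = 0.00333). The r of Basp1 was 0.57 with Gap43 and 0.096 with Omp. Of the neuron precursors and globose basal cells, 8 genes were tested by 12 probes, and both probes of the cyclin Ccnd1 passed 1% between rats of one sex (limma, adjusted p = 0.00915 and 0.00512). The median r of this list with Omp over rats was 0.075.

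Markers of other cells that a dissection can hold were read in the same arrays. 6 genes of horizontal basal cells were tested, of which Tp63, their defining transcription factor, passed 1% between rats of one sex with both of its probes (limma, adjusted p = 0.00924 and 0.00755), beside 1.95% of all probes. All 3 red blood cell probes passed 1% between rats of one sex, and the summed level of the list ran from 1115 to 3751 times the array median in males and from 733 to 2623 in females. The r of the 3 probes with Omp over rats was negative for each, with a median of -0.29. The genes of bone summed to 2687 to 7519 in males and 1836 to 4752 in females, without a probe past 1%, and those of sustentacular cells to 8969 to 10068 and 8750 to 10514. Ensheathing and Schwann cell genes summed to 1805 to 2919 and 1128 to 2616, ciliated respiratory cell genes to 563 to 873 and 598 to 815, and immune cell genes to 207 to 403 and 207 to 259. Of skeletal muscle, Acta1 and Ckm were not above background on enough arrays to be tested, and the tested Actn3 and Tnnt3 had mean levels of 1.31 and -1.65 and an r with Omp over rats of 0.59 and 0.45. Both summed to 2.45 to 4.28 times the array median in males and 1.78 to 8.53 in females, and Actn3 differed by 0.45 ± 0.11 log2 between nostrils A and B (SE, n = 7; limma, adjusted p = 0.781). Among the neurons outside the epithelium, Gad1, Gad2 and Th, which mark cells of the olfactory bulb, had an r with Omp over rats of -0.90, -0.88 and -0.82, but of -0.35, -0.091 and 0.049 between nostrils, at mean levels of -1.65, 0.24 and 0.30. The other 3 tested genes of this list had an r over rats of 0.69 (Prph, the brightest at a mean level of 7.89), -0.060 (Trpc2) and -0.57 (Gnrh1), and between nostrils of 0.77, -0.58 and -0.18. With Gap43 the r over rats was -0.54, -0.70 and -0.67 for Gad1, Gad2 and Th, and 0.54, -0.12 and -0.70 for Prph, Trpc2 and Gnrh1. Between nostrils the r with Gap43 was -0.84, -0.61 and -0.46 for Gad1, Gad2 and Th, and 0.70, 0.040 and -0.46 for Prph, Trpc2 and Gnrh1. The part of any of these cells in the levels of the members was not tested.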

How the data were processed

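Total RNA of each epithelium had been hybridised in 1 colour to an Agilent whole rat genome array of 41012 probes. Per the file headers, Agilent Feature Extraction 9.5.1.1 had made the background-subtracted signal intensities of the 15 scanner files, and the rn3 positions are those of the array design. The deposited ratio table holds, for each array, the intensity divided by the median of the array and then by the median of the probe, as the authors' methods describe. This was checked on 19037 probes, where 100% of the ratios came within 2% of that quotient. These ratios were tried as an alternative.

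Spots flagged as outliers were dropped, spots of a probe averaged, and each array divided by its median probe. Values were floored at 0.1 of the median and turned into log2, computed here from the deposited intensities. Probes well above background on at least 7 arrays were tested with limma 3.58.1 in R 4.3.3 (lmFit and eBayes with trend), with Benjamini-Hochberg adjustment over all of them and a threshold of 1%. Nostrils were compared with the rat as block, sexes on the means of 8 rats. The pairing comes from the labels, which number the rats, and the deviations of a rat in both nostrils correlated over the tested probes with r from 0.25 to 0.49. The error in the tests of nostrils and of rats came from the spread of the differences between nostrils, and in the test of sexes from the spread between rats of one sex. The number of arrays limits their precision. Dependence on Omp or Gap43 was fitted with their level as covariate. Scripts were tested on simulated data. Named genes were all members, the 10 genes nearest to Omp and to Gap43, and genes of the lists that passed 1%, with examples of each list. Some of the nearest genes are not reported here. Names such as LOC, RGD or accessions were left out of that ranking. List genes were matched by the name on the array or by accession, of which 10735 probes had one in the reference gene table of assembly GRCr8. The members and lists were chosen with earlier results of these data known. Alternatives were other scalings, background correction, floors, filters, the ratio table, a 5% threshold, the slide as block, no block and each rat left out. Normexp with quantile normalisation and the fit between rats without a nostril term were added after seeing the data.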

Additional observations from a re-analysis of the deposited data

Results flagged for a closer look

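In 30 sets of values (the rat means of each sex and the nostril differences, for 10 probes), 1 value stood apart from the rest of its set by Dixon's test at the 95% level, which chance reaches in about 1 of 20 sets. The difference between nostrils A and B of Stmn1 by probe A_43_P11845 was -0.19 log2 in male 6, where the other 6 rats ran from -0.013 to 0.093. The gap to the nearest rat took up 0.627 of the whole range, beyond the critical 0.568 for 7 values. Nostril B was the brighter side of male 6 for all 10 member probes. Without male 6 the difference between nostrils still passed 1% for 0 members.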

How the results depend on the processing

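Between nostrils, between sexes and for sex by nostril, 0 members passed under each alternative run, among them the fits between nostrils without the replicate block, where 0 members passed too. Between rats of one sex 1 member, Ncam1, passed at 5%, where 3454 of 27574 probes passed, and 0 members passed under the other alternatives. The count over all probes at 1% moved from 537 to between 89 (normexp background) and 1155 (normexp with quantile normalisation, added later), and was 95 with the slide as block. Between sexes the count over all probes was 12, and ran from 4 (probes detected on all arrays) to 641 with the slide as block and 1031 with arrays taken as independent. For dependence on Omp over rats, 5 members passed with normexp background and 4 with the slide as block, and for Gap43 over rats 2 and 5. Between nostrils 9 passed with normexp background for either reference. The slide fits take both nostrils of a rat as independent. Normexp adds an offset of 50 before scaling by the median, and then 17125 of 27574 probes passed with Omp between nostrils and 2283 over rats, where 0 had passed before and 1539 passed with the slide as block. With Gap43 under normexp, 17718 of 27574 probes passed between nostrils and 382 of 27625 over rats, where 509 passed with the slide as block.

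The r of Omp and Gap43 was 0.81 over rats and 0.88 between nostrils with the slide as block (exact permutation p = 0.0136 and 0.00774), which between nostrils moved only the value of female 3. It was 0.94 and 0.99 with normexp background, and between nostrils -0.039 with quantile normalisation and -0.15 with normexp and quantile normalisation. Leaving out 1 rat gave 0.57 (without female 8) to 0.83 (without male 6, exact permutation p = 0.0298) over rats and 0.34 (without male 6) to 0.92 (without female 3, exact permutation p = 0.00139) between nostrils.

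The sign turned for these values, of which 0 had passed. The nostril difference of Omp became 0.0038 at the 75th percentile, 0.0069 with quantile normalisation and 0.11 with normexp, and ran from -0.026 to 0.035 with 1 rat left out. That of Gap43 became 0.098 with normexp and ran from -0.043 to 0.0034. The sex difference of Gap43 became -0.00039 at the 75th percentile, -0.058 with normexp and -0.0095 with normexp and quantile normalisation, and ran from -0.0091 to 0.073. With the slide as block it became 0.22 for Omp, 0.15 for Stmn1 A_43_P11845 and -0.0011 for A_44_P401165. With 1 rat left out it ran from -0.049 to 0.035 for Omp and from -0.073 to 0.017 for A_43_P11845. The r with Omp over rats became for Ncam1 0.55 with normexp, 0.74 with the slide as block and 0.091 over arrays taken as independent, and ran from -0.38 to 0.24. For A_44_P401165 it became 0.49 with normexp and 0.67 with the slide as block, and ran from -0.34 to 0.25. For Stmn2 it became -0.045 with normexp and quantile normalisation. Between nostrils the r with Omp became, for A_44_P401165, 0.93 with normexp and 0.69 with the slide as block, and ran from -0.42 to 0.69. It became -0.024 for A_43_P11845 and -0.17 for Dcx with normexp and quantile normalisation, and for Ncam1 it ran from -0.012 to 0.76. The r with Gap43 between nostrils became -0.39 for Dcx with quantile normalisation and -0.18 with normexp added, and -0.27 for Stmn2 with normexp and quantile normalisation, and ran from -0.064 to 0.81 for Dcx and from -0.070 to 0.77 for Crmp1. The cause was not tested.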
